A study of Homo sapiens with 24 samples.

Results

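The 35 genes described here encode parts of the epithelial cell junctions and of the keratin cytoskeleton that the junctions hold: 6 claudins, the 3 members of the occludin family, 4 tight junction scaffolds, the junctional adhesion molecule F11R with the polarity proteins PARD3 and PARD6B, 4 catenins, 7 desmosome and plakin genes, 6 keratins and 2 connexins. They were taken by name from a list drawn up with earlier results of these data known, and each gene's value is the sum of the reads on its annotated transcripts. All 35 were among the 42072 genes and unmatched transcripts (together called features) in the count table. Of the features, 19897 had enough reads to be tested, and 33 members were among them. CLDN3, with 2 to 10 reads per library, and TJP3, with 1 to 10, were too low.

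The cells were A549, a single established human line from a lung adenocarcinoma. They were exposed either to 100 nM dexamethasone (dex), a synthetic glucocorticoid, with 0.02% ethanol, or to 0.02% of the vehicle ethanol alone (EtOH). Polyadenylated RNA was measured at 6 time points, every other hour from 1 to 11 hours, each with its own EtOH group and with 2 libraries per group, 24 in all. The question at each time point is which members differed between dex and EtOH.

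Libraries held 6708864 to 13748598 reads (median 10109393.5). Of the markers of other cells, CD3E was at 0 reads in every library, PTPRC reached 3, VWF 1 and COL1A2 1, while COL1A1 ranged from 45 to 268 and was called higher with dex at 3 hours (0.57, log2) and lower at 5, 7 and 9 hours (-1.20, -1.03 and -1.37). The defining alveolar type 2 genes were nearly absent (SFTPA1 0, SFTPC at most 1 and NKX2-1 at most 2 reads), while ABCA3 lay between 23.6 and 48.9 CPM (a gene's count over its library's total as scaled by the TMM method, times a fixed constant). Of the epithelial markers, EPCAM ranged from 4.1 to 11.1 CPM and CDH1 from 28.9 to 60.3 CPM. EPCAM was called lower with dex at 5, 7 and 9 hours (-0.84, -0.96 and -0.72), and KRT19 at 5 and 9 hours (-0.57 and -1.04). CDH1, KRT7, KRT8 and KRT18 were called higher at 5 and 7 hours. The part of these marker changes in the results was not tested. TSC22D3, a known glucocorticoid target, was already higher with dex at 1 hour, by 3.24 (log2). Libraries also differed in how far GC-rich genes were counted above GC-poor ones, from -0.40 (log2, the decile of genes with the highest GC content against that with the lowest) in dex at 1 hour, replicate 1, to 0.57 in dex at 11 hours, replicate 2. Values fitted with that tilt as an offset, an alternative added after the data were seen, are given below wherever they change a member's call. Genes other than the members, such as COL1A1, EPCAM and CDH1, were not checked in that fit.

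Epithelial cells are joined by tight junctions, whose claudin and occludin strands seal the space between cells and are tied to actin by scaffold proteins such as TJP1. Adherens junctions couple cadherins to actin through catenins. Desmosomes join neighbouring cells through the cadherins DSG and DSC, which plakoglobin (JUP), plakophilins (PKP) and desmoplakin (DSP) link to keratin filaments, and gap junctions are channels of connexins. Simple epithelia such as that of the lung build their filaments mainly from the type II keratins KRT7 and KRT8 with the type I keratins KRT18 and KRT19.

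Promoter sequence was taken from RefSeq (GRCh38.p14) for the 21 members whose symbol matched, as windows of the 250 bases before an annotated start. Stretches of 4 of them are shown, from genes that moved at 5 consecutive time points, a pair down (CLDN1, CLDN2) and a pair up (DSP, KRT8). OCLN, also matched and lower at 5 consecutive time points, is not shown. Each is written 5′ to 3′ on the gene's strand and holds bases outside annotated exons. Capitals mark matches on either strand to the GC box (GGGCGG) or to the E-box bound by SNAI and ZEB factors (CACCTG). The CLDN1 stretch lies at chr3:190322476-190322696 (minus strand), that of CLDN2 at chrX:106918110-106918359 (plus strand, inside the gene), that of DSP at chr6:7541421-7541574 (plus strand) and that of KRT8 at chr12:52926470-52926719 (minus strand, inside the gene's full span).
CLDN1: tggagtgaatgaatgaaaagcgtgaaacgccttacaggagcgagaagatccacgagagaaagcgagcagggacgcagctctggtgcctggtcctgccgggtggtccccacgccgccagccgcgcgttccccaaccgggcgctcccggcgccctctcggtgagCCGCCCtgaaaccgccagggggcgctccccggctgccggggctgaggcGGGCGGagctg
CLDN2: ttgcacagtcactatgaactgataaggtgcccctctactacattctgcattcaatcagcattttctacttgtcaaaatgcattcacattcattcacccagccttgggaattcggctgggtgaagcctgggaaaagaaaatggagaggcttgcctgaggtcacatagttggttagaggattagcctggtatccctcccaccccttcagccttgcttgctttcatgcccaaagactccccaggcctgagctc
DSP: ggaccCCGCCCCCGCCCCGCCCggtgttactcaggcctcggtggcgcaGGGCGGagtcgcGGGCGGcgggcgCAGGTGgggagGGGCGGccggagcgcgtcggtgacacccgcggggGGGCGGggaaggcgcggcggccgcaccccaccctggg
KRT8: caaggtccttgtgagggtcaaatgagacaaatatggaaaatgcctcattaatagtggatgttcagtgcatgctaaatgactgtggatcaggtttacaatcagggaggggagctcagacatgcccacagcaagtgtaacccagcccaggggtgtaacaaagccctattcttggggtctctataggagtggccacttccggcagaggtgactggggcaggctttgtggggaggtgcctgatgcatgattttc

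Among the 21 matched members, 17 held a GC box in at least 1 window (81%, against 42.6% of 35116 promoter windows in the table), and 8 held CACCTG (38.1%, against 17.5%). A member with several annotated starts had several windows, so the shares of members and of windows are not like for like. The palindromic glucocorticoid response element, searched as AGAACA and TGTTCT with any 3 bases (NNN) between them, was in 1 of the 35116 windows and in that of no member. AGAACA by itself stood in 12.4% of windows and, among the members, in that of TJP1. The AP-1 motif TGANTCA, in 6.57% of windows, occurred in those of CLDN2, CLDN4 and GJA1, for CLDN2 in a window other than the one printed. In the printed stretches, CLDN1 and DSP show GC boxes and CLDN2 and KRT8 show none. This split depends on the genes picked: OCLN, which fell and is not printed, held a GC box and CACCTG in its windows. Whether these motifs go with the direction of change was not tested.

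Junction and keratin genes moved in both directions after dex, from 3 hours on. A member was called where edgeR's quasi-likelihood test gave a Benjamini-Hochberg adjusted p of at most 0.1 over all features tested. At 1 hour 1 of the 33 tested members was called (3.03%, against 0.824% of all features). At 3 hours 17 were called, 10 higher and 7 lower with dex (51.5%, against 12.9% of features, 7.85% higher and 5.02% lower). At 5 hours there were 19, of which 11 were higher and 8 lower (57.6%, against 23.1%, 11.4% higher and 11.7% lower).

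At 7 hours 16 members were called, 11 higher and 5 lower (48.5%, against 25.8% of all features, 13.4% higher and 12.4% lower). At 9 hours 19 were called, 10 higher and 9 lower (57.6%, against 18.1%, 9.31% higher and 8.78% lower). At 11 hours there were 14, 8 higher and 6 lower (42.4%, against 8.68%, 5.39% higher and 3.29% lower). Members were also more highly expressed than most features, with a median of 40.3 against 11.1 CPM. Among tested features with a mean of at least 10 CPM there were 24 members. The shares called, of these members and of all such features, were 4.17% and 1.25% at 1 hour. At 3 hours they were 62.5% and 17.7%, and at 5 hours 62.5% and 30.2%. They were 58.3% and 35.2% at 7 hours, 62.5% and 24.4% at 9 hours, and 50% and 10.7% at 11 hours.

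The signed median log2 fold change of the tested members stayed between -0.03 and 0.08 over the 6 time points, near that of all features (-0.02 to 0.01), while its median size was 0.57 at 5 hours and 0.65 at 11 hours, against 0.25 and 0.23. Rises and falls balanced in the median. In all, 23 members were called at 1 or more time points (69.7%, against 41.4% of features), and 17 at 2 or more consecutive ones (51.5%, against 18.8%). Of these 17, 11 were higher with dex (CLDN7, F11R, PARD6B, CTNNB1, DSP, PKP2, PPL, KRT7, KRT8, KRT18 and KRT81). The other 6 were lower (CLDN1, CLDN2, OCLN, PARD3, DSC2 and KRT80). CLDN7 had enough reads to be tested only through its dex libraries, so its place in these counts depends on its rise.

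Of the 86 calls of a member at a time point, 53 held under every alternative processing in which the member had a test result, and 33 were lost under at least 1. CLDN7 had a result in 10 or 11 alternatives and CGNL1 in 12, against 13 for the other members. Leaving out a single library lowered a count of called members from 3 hours on by over 1.5 times in 3 cases. These were EtOH replicate 1 at 3 hours and at 11 hours, and dex replicate 2 at 9 hours. The share of all features called in those fits was not computed.

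**Figure D1:**
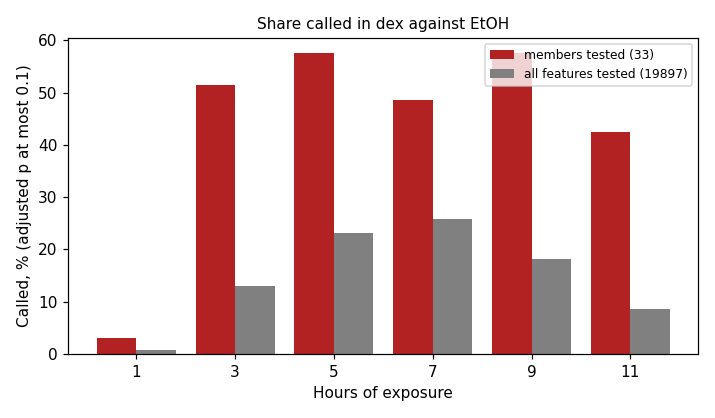
Share of the tested members (red, 33 genes) and of all tested features (grey, 19897) called at each time point, in percent, against hours of exposure. The red bar is above the grey one at all 6 time points, with 57.6% against 23.1% at 5 hours.

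**Figure D2:**
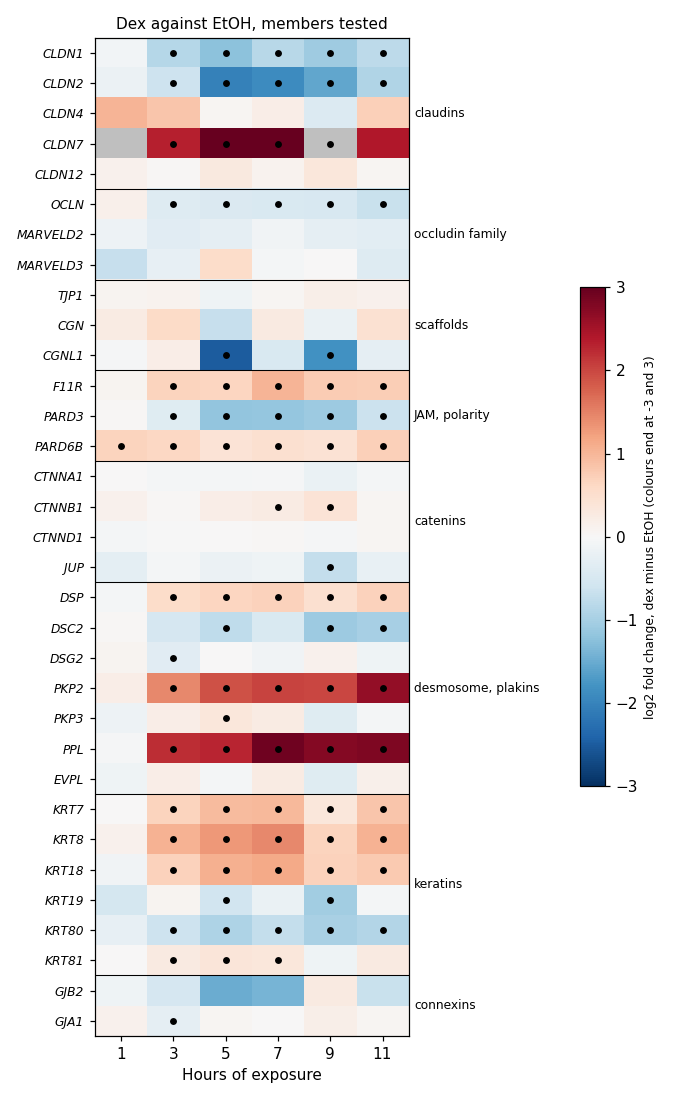
Log2 fold change of dex over EtOH (colour) for the 33 tested members, in rows grouped by role, at the 6 time points in columns, with a black dot where the member was called. Grey marks CLDN7 at 1 and 9 hours, where both EtOH libraries held no read, and the dotted red and blue rows run side by side within the claudins, the desmosome and the keratins.

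In the tight junction strands, CLDN1 and CLDN2 fell, CLDN7 appeared from near 0, and OCLN fell by less. CLDN1, a barrier-forming claudin, was lower with dex from 3 to 11 hours. At 5 hours it read 42.2 and 39.1 CPM with dex and 89.3 and 99.3 CPM with EtOH. The groups did not overlap, and the log2 fold change was -1.22 (SE 0.12, adjusted p = 1e-11). The 11 hour call was lost without EtOH replicate 1 (-0.65, adjusted p = 0.242).

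CLDN2, which forms pores for cations and water, fell to a lower level and was nearer to EtOH again at 11 hours. It stood at 47.0 and 52.9 CPM with dex against 57.5 and 55.8 CPM with EtOH at 1 hour. At 3 hours it was called lower (36.7 and 37.0 against 60.8 and 52.7 CPM, -0.62, adjusted p = 0.000402). At 5 hours it was at 14.1 and 15.5 CPM with dex against 62.5 and 58.4 CPM with EtOH (log2 fold change -2.03, SE 0.14, adjusted p = 1.67e-16). At 11 hours the dex libraries had risen to 24.2 and 30.7 CPM, still under the 50 and 52.3 CPM of EtOH (-0.90, adjusted p = 0.00371). Its difference between dex and EtOH was smaller at 11 than at 5 hours, by 1.13 on the log2 scale (SE 0.19, adjusted p = 0.00086 for that contrast). Of all features, 2.42% passed the same contrast.

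CLDN7, a claudin of many epithelia, was the lowest member per transcript length in EtOH and rose with dex. At 5 hours the dex libraries held 23 and 22 reads and the EtOH libraries 2 and 0, a depth-corrected ratio of 27 (95% exact interval 7.07 to 230). At 3, 7 and 11 hours the ratio was 5.26 (1.98 to 17.6), 9.49 (3.77 to 30.7) and 5.57 (1.67 to 29.1). At 9 hours 11 and 28 dex reads met 0 in both EtOH libraries, at least 13.5-fold higher when 3 reads are allowed over the EtOH group. These intervals and the bound cover counting error only. CLDN7 passed the test at 3, 5, 7 and 9 hours, with adjusted p between 9.82e-07 and 0.0186. The 3 hour call was lost without EtOH replicate 1, with a change of 1.82. Its dex libraries still held at most 2.51 CPM, and its EtOH libraries at most 0.392 CPM. CLDN7 had enough reads to be tested only through the dex libraries, where it was high. Its adjusted p values are therefore not independent support for the rise.

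The other claudins did not pass at any time point. CLDN12, a widely expressed claudin, lay between 22.7 and 33.2 CPM. CLDN4, another epithelial claudin, lay between 0.612 and 2.12 CPM. For CLDN12 the fit with the GC tilt as an offset gave a log2 fold change of 0.36 at 5 hours (adjusted p = 0.0477), against 0.30 (0.13) without it.

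OCLN, the tight junction protein occludin, was lower at the 5 time points from 3 to 11 hours, by between 0.39 and 0.67 on the log2 scale. At 11 hours it read 28.5 and 22.8 CPM with dex and 41.8 and 40.1 CPM with EtOH (-0.67, SE 0.17, adjusted p = 0.0278). All dex libraries of 3 to 11 hours were under the EtOH libraries of their time point. Without EtOH replicate 1 or 2 at 11 hours the adjusted p was 0.34 and 0.233, with changes of -0.64 and -0.70. Each of the other 4 calls was also lost under some alternative: at 3 hours with DESeq2 (adjusted p = 0.195), without dex replicate 1 (0.384) or EtOH replicate 1 (0.444), and at 5 hours with a single transcript (0.159). The 7 hour call was lost without dex replicate 1 (0.16), and that of 9 hours with DESeq2 (0.109) and without dex replicate 1 (0.356) or 2 (0.195). In all of these the change stayed negative. Its relatives MARVELD2 (tricellulin, 5.52 to 10.2 CPM) and MARVELD3 (0.601 to 1.83 CPM) passed at no time point.

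Of the scaffolds, TJP1 (ZO-1), which ties the strands to actin, ranged from 333 to 433 CPM and passed at no time point, nor did cingulin (CGN, 1.75 to 3.94 CPM). Paracingulin (CGNL1), which links junctions to actin and microtubules, was called lower at 5 and 9 hours and at no other time point. Its dex libraries held 0.437 and 0.560 CPM at 5 hours against 3.39 and 2.42 CPM with EtOH (-2.50, SE 0.47, adjusted p = 4.64e-05). At 7 hours they were at 2.12 and 1.85 against 2.67 and 2.84 CPM, and the difference did not pass (-0.46, adjusted p = 0.374). At 9 hours they were at 0.574 and 1.05 against 3.65 and 2.53 CPM (-1.81, adjusted p = 0.00641). At 11 hours the groups overlapped, and the contrast of 11 with 5 hours was 2.24 (SE 0.54, adjusted p = 0.0298). That contrast was not called without dex replicate 1 or EtOH replicate 1 at 5 hours, or without dex replicate 2 or EtOH replicate 1 at 11 hours (1.86 to 2.07, adjusted p 0.115 to 0.175).

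The adhesion and polarity members moved apart. F11R, the immunoglobulin-like adhesion molecule JAM-A, was higher with dex from 3 to 11 hours. At 7 hours it read 84.9 and 87.4 CPM with dex and 39.8 and 45.0 CPM with EtOH (1.02, SE 0.10, adjusted p = 1.52e-10). Its 10 dex libraries of 3 to 11 hours, between 72.1 and 88.2 CPM, were above every EtOH library, the highest of which held 57.1 CPM. The 11 hour call was lost without EtOH replicate 1 (0.77, adjusted p = 0.13) or 2 (0.69, adjusted p = 0.223).

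PARD3, the scaffold of the PAR polarity complex, fell, by -0.36 at 3 hours and -1.18 at 5 hours. At 5 hours it was at 87.5 and 83.4 CPM with dex against 203 and 185 CPM with EtOH (SE 0.10, adjusted p = 1.21e-12). At 11 hours the dex libraries held 105 and 133 CPM, under 182 and 192 CPM in EtOH (-0.65, adjusted p = 0.0141). The 11 hour call was lost without EtOH replicate 1 (adjusted p = 0.142) or 2 (0.257), and the 3 hour call without dex replicate 2 (0.113) or EtOH replicate 1 (0.247) and with a single transcript (0.107). The contrast of 11 with 5 hours was 0.53 (SE 0.15, adjusted p = 0.0775). It passed in the test of all libraries but was lost when any of 7 of the 8 libraries was left out, with changes between 0.35 and 0.60.

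PARD6B, a partner of PARD3 in the same complex, went the other way and was the only member called at 1 hour. It then stood at 38.0 and 40.9 CPM with dex and at 26.5 and 23.4 CPM with EtOH (0.66, SE 0.14, adjusted p = 0.0321). Without EtOH replicate 1 at 1 hour the change was 0.75 (adjusted p = 0.155) and without replicate 2 it was 0.57 (0.947). PARD6B was called higher at all 6 time points, with the largest difference at 11 hours, 38.2 and 33.1 against 20.3 and 22.8 CPM (0.72, SE 0.17, adjusted p = 0.0193). That call was lost without EtOH replicate 1 (0.64, adjusted p = 0.403) or 2 (0.81, adjusted p = 0.164). The 5 hour call was lost with DESeq2 (0.43, adjusted p = 0.176), without dex replicate 2 (0.36, 0.155) and without EtOH replicate 1 (0.24, 0.381). The 9 hour call (0.44, adjusted p = 0.0639) was lost with the GC offset (0.33, adjusted p = 0.171), with DESeq2 (0.183) and without either dex library or EtOH replicate 1 (0.172 to 0.38).

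**Figure D3:**
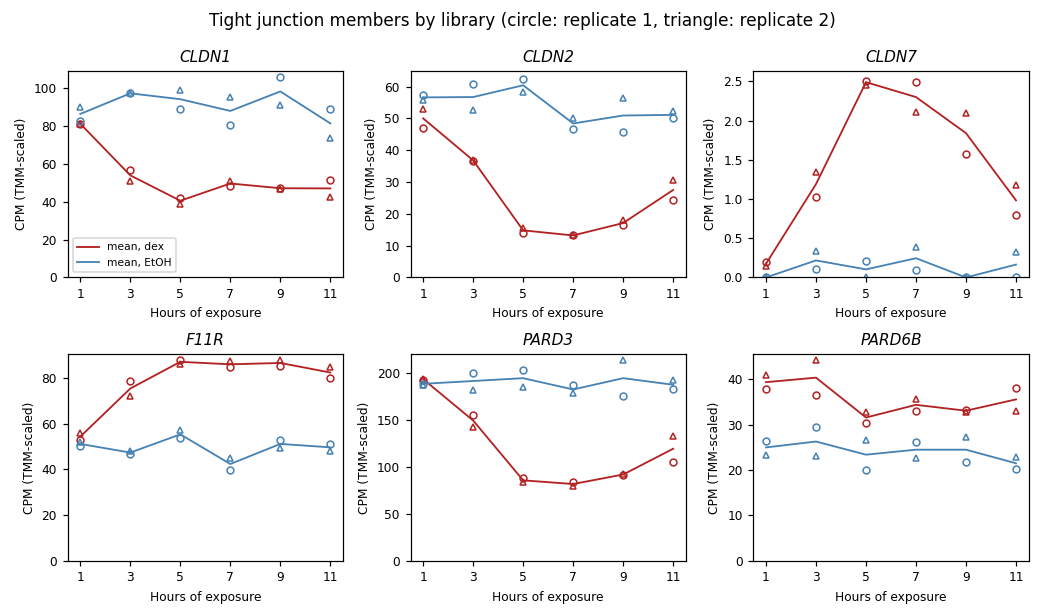
CPM (from 0) of 6 tight junction and polarity members against hours of exposure, with dex in red and EtOH in blue, each symbol 1 library (circles replicate 1, triangles replicate 2) and lines through the means of the 2 libraries. CLDN2 and PARD3 drop by 5 hours and are nearer to EtOH at 11 hours, while F11R and PARD6B stay above it.

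The catenins of the adherens junction were abundant and moved little. CTNNA1 (alpha-catenin, 228 to 307 CPM), which binds actin, and CTNND1 (p120-catenin, 286 to 323 CPM), which holds cadherins at the membrane, were called at no time point. For CTNND1 all 6 log2 fold changes were between -0.06 and 0.06. Beta-catenin (CTNNB1), the link to alpha-catenin and a signalling protein, was higher at 7 and 9 hours. It read 712 and 694 CPM with dex at 9 hours and 551 and 512 CPM with EtOH (0.40, SE 0.11, adjusted p = 0.0212). Without dex replicate 1 or 2 at 9 hours the change was 0.39 or 0.42 and did not pass (adjusted p = 0.378 and 0.298). The 7 hour call (0.25) was lost without dex replicate 2 (0.19, adjusted p = 0.277), so neither call held under every alternative. The GC offset added 5 hours (0.21, adjusted p = 0.0872).

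Plakoglobin (JUP), shared by adherens junctions and desmosomes, was called at 9 hours only, with 26.9 and 37.5 CPM against 45.6 and 61.0 CPM (-0.71, SE 0.18, adjusted p = 0.0163). Without dex replicate 1 of that time point it was not called (-0.51, adjusted p = 0.288). JUP is GC-rich (61.4% over its transcripts), and the EtOH libraries of 9 hours had GC tilts of 0.09 and 0.42 against -0.15 and 0.02 with dex. With the offset the 9 hour change was -0.58 (adjusted p = 0.0128), and JUP was also lower at 3, 5, 7 and 11 hours, by -0.28, -0.29, -0.29 and -0.42.

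In the desmosome, the plakin periplakin (PPL), plakophilin 2 (PKP2) and desmoplakin (DSP) rose, and the cadherin DSC2 fell. PPL, which binds keratin filaments at the cell cortex, was low in EtOH and had the largest fold rise of the members other than CLDN7. At 7 hours it stood at 17.5 and 15.7 CPM with dex and at 2.67 and 1.76 CPM with EtOH (2.91, SE 0.22, adjusted p = 4.68e-13). At 1 hour the groups overlapped (2.07 and 4.39 against 4.09 and 2.30 CPM), and from 3 hours the lowest dex library, at 10.2 CPM, was above the highest EtOH library of any time point.

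PKP2, which brings desmoplakin to the membrane, was higher with dex from 3 to 11 hours. The dex libraries held 25.4 and 33.7 CPM at 3 hours, 35.1 and 37.0 at 5 hours, 43.3 and 48.6 at 7 hours, 41.5 and 44.5 at 9 hours and 52.8 and 49.8 at 11 hours. The EtOH libraries lay between 7.18 and 13.6 CPM throughout. The log2 fold change was 1.45 at 3 hours and 2.63 at 11 hours (SE 0.19, adjusted p = 1.29e-06). The contrast of 11 with 5 hours, was not called for PKP2 (0.70, adjusted p = 0.141) and was called with the GC offset (0.69, adjusted p = 0.0726).

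DSP, which anchors keratin to the desmosome plaque, was already at over 100 CPM in EtOH and rose by 0.49 to 0.69 from 3 hours. At 11 hours it read 185 and 216 CPM with dex and 111 and 137 CPM with EtOH (0.69, SE 0.15, adjusted p = 0.0107). Without EtOH replicate 1 at 11 hours that change was 0.55 (adjusted p = 0.432), and the 9 hour call was lost without dex replicate 1 (0.54, 0.141) or 2 (0.43, 0.267). At 7 hours, 181 and 212 CPM stood against 124 and 121 CPM (0.68, SE 0.08, adjusted p = 4.02e-08).

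Of the desmosomal cadherins, DSC2 was low and lower with dex at 5, 9 and 11 hours. At 9 hours it held 3.16 and 3.38 CPM against 7.58 and 6.38 CPM (-1.08, SE 0.25, adjusted p = 0.00778). Without dex replicate 2 the 9 hour change was -1.14 (adjusted p = 0.114), and DESeq2 called neither 5 hours (adjusted p = 0.324) nor 11 hours (0.22). The 11 hour change without EtOH replicate 1 was -0.58 (adjusted p = 0.836), and the 5 hour change without dex replicate 2 was -0.51 (0.373). DSG2, the abundant desmoglein, ranged from 180 to 262 CPM and was called once, at 3 hours, with 185 and 203 against 262 and 225 CPM (-0.33, adjusted p = 0.0303). That call was lost without dex replicate 1 (-0.26, adjusted p = 0.256) or EtOH replicate 1 (-0.21, 0.494).

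PKP3, another plakophilin (66.6% GC), was called at 5 hours, with 31.7 and 31.0 against 23.8 and 26.0 CPM (0.33, adjusted p = 0.0847). The call was lost under 9 of 13 alternatives, among them each single library left out and the GC offset (0.16, adjusted p = 0.429). Envoplakin (EVPL), which pairs with periplakin in the cornified envelope, ranged from 8.36 to 16.8 CPM and was called at no time point, so PPL and its partner differed in their calls. At 7 hours EVPL read 13.0 and 14.1 against 10.5 and 12.2 CPM (0.25, adjusted p = 0.308). Whether the changes of PPL and EVPL differed was not tested.

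**Figure D4:**
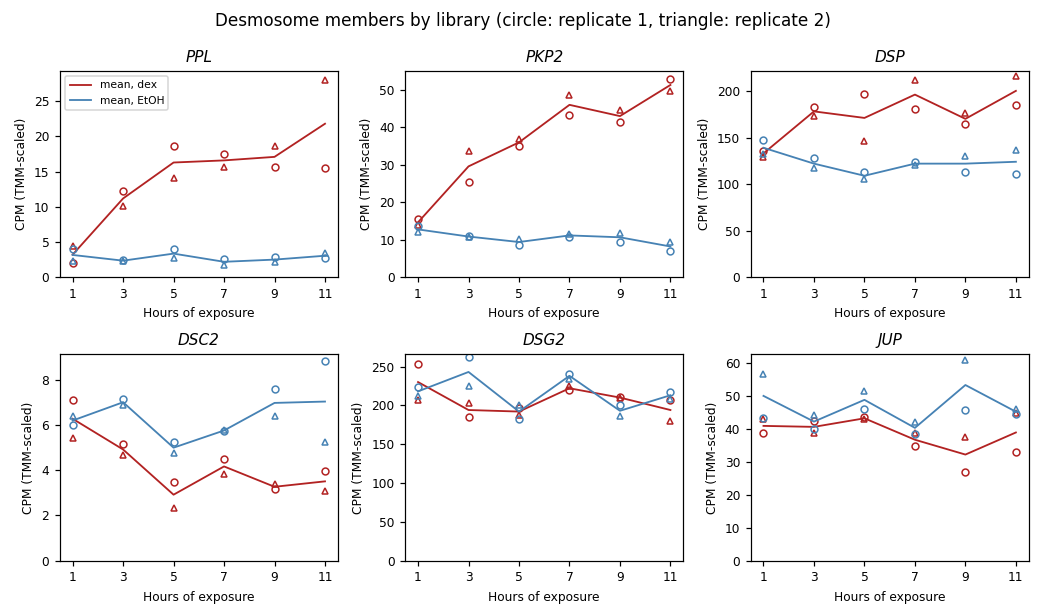
CPM (from 0) of PPL, PKP2, DSP, DSC2, DSG2 and JUP against hours of exposure, with dex in red and EtOH in blue, each symbol 1 library (circles replicate 1, triangles replicate 2) and lines through the means of the 2 libraries. PPL and PKP2 separate from EtOH at 3 hours, and PKP2 is highest at 11 hours (52.8 and 49.8 CPM).

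Of the 6 keratins, 4 were the most abundant members. Per transcript length (TPM, reads over length scaled to the same sum in each library), the EtOH medians were 2900 for KRT8, 2890 for KRT18, 910 for KRT7 and 534 for KRT81, and the next member, CTNNA1, stood at 374. The first pair cannot be ordered, since their EtOH ranges (2250 to 3610 and 2210 to 3240) overlapped, while the lowest KRT7 library (755) was above the median of KRT81 and just under its highest (756). KRT80 followed at 83.2 and KRT19 at 30.6.

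The main filament pair rose together. KRT8 stood at 5050 and 5110 CPM at 5 hours with dex and at 2190 and 1920 CPM with EtOH (1.31, SE 0.11, adjusted p = 6.81e-14). Its largest difference was at 7 hours, with 4110 and 4040 against 1440 and 1550 CPM (1.45, SE 0.07, adjusted p = 1.4e-17). KRT18, its type I partner, had its largest difference at 7 hours too, with 4250 and 4120 against 1750 and 2030 CPM (1.14, SE 0.08, adjusted p = 2.41e-14). Both were called from 3 to 11 hours with no overlap between groups. At 9 hours neither passed without dex replicate 2, with changes of 0.55 for KRT8 (adjusted p = 0.203) and 0.65 for KRT18 (0.126).

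KRT7 rose by 0.98 at 7 hours, from 680 and 725 CPM in EtOH to 1400 and 1370 CPM with dex (SE 0.07, adjusted p = 2.46e-13). At 9 hours the change was 0.35 (adjusted p = 0.0746), lost without either dex replicate (0.41, adjusted p = 0.381, and 0.28, adjusted p = 0.574). KRT81, a hair keratin, was higher at 3, 5 and 7 hours by 0.26 to 0.37. At 5 hours it read 747 and 724 CPM with dex and 612 and 525 CPM with EtOH (0.37, SE 0.10, adjusted p = 0.00626), and without EtOH replicate 2 it was not called (0.27, adjusted p = 0.183). The joint fit of 24 libraries called KRT81 at none of the 3 time points (adjusted p = 0.43, 0.147 and 0.19). The 7 hour call was also lost without dex replicate 1 (0.28, adjusted p = 0.118), and the 3 hour call under 9 of 13 alternatives (0.03 to 0.26), among them DESeq2 (0.218), its size factors (0.112), a single transcript (0.167), dex replicate 1 left out (0.517), EtOH replicate 1 left out (0.583) and the replicate block (0.184).

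KRT7, KRT8, KRT18, KRT19 and KRT81 are all GC-rich (58.7% to 62.9%), and GC tilt differed between treatments at 3 hours (dex 0.20 and -0.02, EtOH -0.36 and -0.09). With the tilt as an offset, the 5 hour changes were 1.22 for KRT8, 0.98 for KRT18, 0.82 for KRT7 and 0.26 for KRT81, all still called. At 3 hours KRT8, KRT18 and KRT7 were still called (0.84, 0.49 and 0.44), and KRT81 was not (0.03, adjusted p = 0.868). KRT18 then also passed the contrast of 11 with 5 hours (-0.36, adjusted p = 0.0963).

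KRT80, a type II keratin tied to desmosomes, fell at every time point from 3 hours. At 9 hours it held 92.6 and 92.4 CPM with dex and 189 and 173 CPM with EtOH (-0.97, SE 0.11, adjusted p = 2.04e-05). No dex library of 3 to 11 hours (83.9 to 112 CPM) reached an EtOH library of any time point (155 to 189 CPM). With the GC offset the changes from 3 hours lay between -0.79 and -1.03, all called.

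The type I keratin KRT19 was lower at 5 and 9 hours, with 10.1 and 8.19 CPM against 15.6 and 21.4 CPM at 9 hours (-1.04, SE 0.20, adjusted p = 0.00238). Without dex replicate 2 the 9 hour change was -0.87 (adjusted p = 0.118). At 3, 7 and 11 hours its changes were 0.08, -0.19 and -0.05. KRT19 was thus not called higher at any time point at which KRT18 was.

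KRT80, KRT7, KRT81, KRT8 and KRT18 lie within 784 kb of chromosome 12 (chr12:52168996-52952901, GRCh38, GENCODE release 29), with KRT80 at one end and the KRT8 and KRT18 pair at the other. Within this stretch KRT80 fell while KRT7, KRT8 and KRT18 rose. KRT8 and KRT18 overlap on opposite strands in the annotation, both have many processed pseudogenes, and KRT81 is nearly identical to KRT83 and KRT86. The division of reads among such copies is uncertain, since the handling of reads with several matches is not given in the sources used here.

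**Figure D5:**
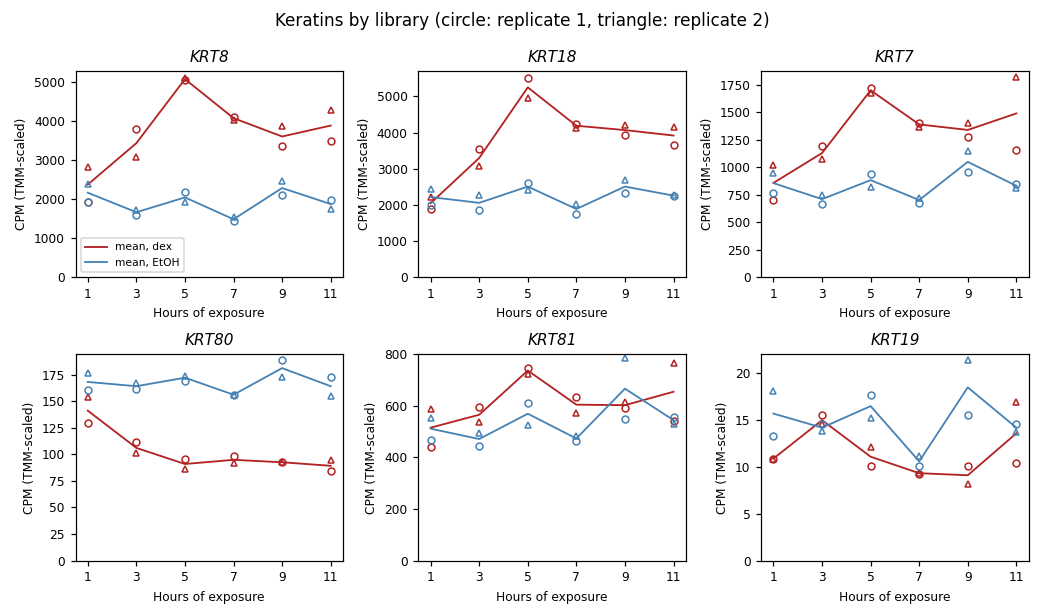
CPM (from 0) of 6 keratins against hours of exposure, with dex in red and EtOH in blue, each symbol 1 library (circles replicate 1, triangles replicate 2) and lines through the means of the 2 libraries. KRT8, KRT18 and KRT7 are above EtOH from 3 hours, KRT80 is below it, and the EtOH means of KRT8 and KRT7 dip at 7 hours and peak at 9 hours.

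Of the connexins, 1 was called once. GJA1 (connexin 43), the main gap junction channel of many cells, ranged from 139 to 201 CPM and was called at 3 hours only (139 and 156 against 182 and 173 CPM, -0.27, adjusted p = 0.0886). That call was lost under 9 of 13 alternatives, and with the GC offset the change was -0.18 (adjusted p = 0.18) and with the replicate block -0.27 (0.19). GJB2 (connexin 26) was at or under 1.36 CPM in every library and passed at no time point. Its log2 fold changes ran from -1.48 at 5 hours (3 and 1 reads against 3 and 11, adjusted p = 0.25) to 0.27 at 9 hours, too few reads to tell a change from none.

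Some keratins also moved in the vehicle alone. Across the 6 EtOH groups, KRT8 (adjusted p = 0.0251), KRT7 (0.0326) and PKP3 (0.0541) were called in a test over time, 9.09% of members against 3.16% of all features. The mean of KRT8 was lowest at 7 hours, 1490 CPM, and highest at 9 hours, 2290 CPM, a factor of 1.53. The EtOH libraries of 7 hours had GC tilts of -0.36 and -0.25 and those of 9 hours 0.09 and 0.42. With the GC offset no member was called in EtOH by that test over time, though KRT8 was just over the threshold (adjusted p = 0.107). With the offset the KRT8 change was 1.3 at 7 hours and 0.76 at 9 hours.

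Other genes of the same structures, listed with earlier results of these data known, were split in direction as well. Of 56 tested, 26 were called at 2 or more consecutive time points (46.4%, against 18.8% of all features), 14 always higher, 9 always lower and 3 in both directions. Among 11 keratins and plakins tested, of 20 found, 8 were, 7 of them higher (KRT6A, KRT6B, KRT6C, KRT16, KRT83, KRT86 and the cytolinker PLEC) and DST lower. KRT6A, KRT6B, KRT6C and KRT16 held at most 0.756 CPM in any EtOH library. They had enough reads to be tested only through their dex libraries, where they were high. Both the 8 of 11 and the 26 of 56 include them, so these shares are raised by the filter. KRT6A, a keratin of stressed and stratified epithelia, had 185 and 201 reads with dex at 5 hours and 5 and 6 with EtOH. That is a ratio of 42.2 (95% exact interval 23.3 to 85.2, which covers counting error only). KRT6A, KRT6B and KRT6C are near-identical, so their reads cannot be divided with certainty.

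Of 15 other adherens junction genes 8 were called in this way: PLEKHA7, which joins p120-catenin to microtubules, VCL and CDH1 higher, NECTIN1, NECTIN3 and CADM1 lower, and NECTIN2 and LIMA1 in both directions. PLEKHA7 read 55.2 and 50.5 CPM at 5 hours with dex and 17.0 and 16.2 CPM with EtOH (1.67, SE 0.13, adjusted p = 5.36e-14). E-cadherin (CDH1), the adhesion receptor to which the catenins bind, was higher at 5 and 7 hours only, with 60.3 and 55.0 against 35.6 and 37.8 CPM at 5 hours (0.65, SE 0.12, adjusted p = 4.3e-05). Of 23 other tight junction genes 6 were called (CXADR, PRKCZ and MYZAP higher, MAGI3 and AMOTL1 lower, AMOTL2 lower at 1 hour and higher later), of 2 desmosome genes PERP (lower), and of 5 gap junction genes PANX1 (higher), GJC1 and PANX2 (lower). The calls of all these other genes, keratins and plakins included, were not checked with the GC offset or under the other alternatives.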

How the data were processed

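Poly-A RNA of A549 cells was sequenced by the study as single-end reads. The authors mapped them to GENCODE transcripts with Bowtie and deposited raw counts per transcript obtained with samtools, with no normalization. The handling of reads with several matches and of strand is not given in the sources used here. The labels' notes name hg19 and SAMtools. The treatment text gives 1 hour for every library. The duration label was used, and the labels give 2 replicates where the study's methods state triplicates.

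Counts of 110261 of 119207 transcripts (94.1% of counts) were joined by identifier without version to GENCODE release 29 and summed per gene. The other 8946 stayed as features. The members and lists were chosen with earlier results of these data known. Features kept by filterByExpr over 12 groups were tested in edgeR 4.0.16 (R 4.3.3; TMM, robust quasi-likelihood F-test, 2 against 2 libraries at each time point, Benjamini-Hochberg over 19897 features, threshold 0.1). The contrast of 11 with 5 hours used all 24 libraries and the vehicle course the 12 EtOH libraries. Nothing states separate cultures, so p-values measure the spread between these libraries, which may be technical. Members called at 2 or more consecutive time points are given in full at their largest change, the others by range and calls. Ratios of low counts have 95% exact (Clopper-Pearson) intervals on the pooled reads of each group, with a floor of 3 counts. The intervals do not cover the spread between libraries. On counts simulated from the 5 hour libraries (19888 genes, 200 changed), the test recovered 85% of 2-fold and 100% of 4-fold changes, with 203 calls made, 8.87% of them false. Every simulated gene had the same spread, only genes above a minimum expected count were changed, and fewer were changed than were called in the data. The rates therefore do not cover genes with a wider spread or few reads, such as CLDN7 and GJB2.

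Replicates of a group differed by more than sampling noise (chi-square per degree of freedom 2.53 to 17.1), so each counted as a library of its own. Alternatives were DESeq2 1.42.0, its size factors within edgeR, a looser filter (any feature with counts) and a stricter one (at least 10 counts per library), a joint fit of all 24 libraries, blocking on the replicate number, a 0.05 threshold, a single transcript of each gene (that with the smallest p combined over time points), and leaving out each library. A GC offset per library (a spline of 4 degrees of freedom over the 15337 tested features with a GC value) was added after the data were seen. Figures were drawn with matplotlib 3.10.9.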

Additional observations from a re-analysis of the deposited data

Results flagged for a closer look

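The difference between dex and EtOH itself differed between 5 and 11 hours for 3 members, by the test of that contrast over 24 libraries (edgeR, Benjamini-Hochberg adjusted over all features). That is 9.09% of the tested members, against 2.42% of all features. The change at 11 hours minus that at 5 hours was 1.13 for CLDN2, 2.24 for CGNL1 and 0.53 for PARD3 (log2), in each case a smaller fall at the later time. For CLDN2 the contrast was called under every alternative run, while that of PARD3 was lost under 8 of 15 and that of CGNL1 under 4 of 13. CGNL1 rested on few reads, with its dex libraries at 0.437 and 0.560 CPM at 5 hours and at 2.02 and 3.25 CPM at 11 hours.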

How the results depend on the processing

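No member's called change turned direction under any alternative. Of 1149 recomputed member values, 1041 kept their call and 108 lost it. The count called at 1 hour was 1 and became 2 with the replicate number as a block, and ranged from 0 to 3 with 1 library left out (0 without either EtOH library). Left-out libraries moved the counts between 11 and 16 at 3 hours, 16 and 17 at 5 hours, 14 and 17 at 7 hours, 10 and 24 at 9 hours and 7 and 19 at 11 hours, and that of members called at consecutive times between 15 and 18. For the contrast of 11 with 5 hours the count was 3, 5 with the GC offset and 1 to 4 with 1 library left out (1 without dex replicate 1 or EtOH replicate 1 at 5 hours, or dex replicate 2 or EtOH replicate 1 at 11 hours). For the EtOH course it was 3, with no filter 8, with DESeq2 5, with the GC offset 0, and 0 to 8 with 1 library left out (0 without replicate 1 at 7 hours, 8 without replicate 1 at 9 hours, 5 without replicate 2 at 3 hours). With the GC offset, the shares of all features called in dex against EtOH were 1.58, 13.8, 26.2, 28.5, 20.6 and 13.1% from 1 to 11 hours. For the other alternatives, and for the contrast and the EtOH course with the offset, such shares were not computed. The moved counts are therefore not read as particular to the members. The causes were not tested.

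The study's methods call the EtOH controls paired, without saying that replicate numbers mark the pairs, and the numbers were not taken to pair samples: same-numbered libraries deviated together with correlations of -0.0588 to 0.135 over the time points. Fitted with that number as a block, 15, 19, 16, 22 and 15 members were called at 3, 5, 7, 9 and 11 hours. Of the main calls KRT81 (adjusted p = 0.184) and GJA1 (0.19) at 3 hours were lost. The share of all features called with the block was not computed. With 2 libraries per group a lone left-in library was assumed to vary like the others. Counts under about 1 CPM, as for CLDN3, TJP3, GJB2 and CLDN7 in EtOH, limit what could be called.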
